A study of Mus musculus with 104 samples.

Results

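The joins made by a DNA break on mouse chromosome 12 were compared between neural progenitor cells (NPC) and the embryonic stem cells (ESC) from which they had been differentiated. The members are the 16 experiments that carried the bait on chromosome 12 and were given DMSO, the solvent control, out of 104 in the series. They fill 4 of its 24 junction tables and were chosen by the table labels alone. Together they hold 318341 of 2018794 junctions, each read name being counted once per table.

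The groups were NPC of line 1 and NPC of line 2, set against ESC of line 1 and ESC of line 2, with 4 experiments (A to D) in each. All cells were C57BL/6/129SVE, with the genotype Xrcc4-/- p53-/-, so the ESC also lacked both genes. NPC were held in N2B27 medium for differentiation and NBBG medium with B27 afterwards, and ESC in medium with serum. The assay reads genomic DNA, so the cell types and the deleted genes could not be checked against expression, and DMSO is present in every library. The labels name the experiments but not separate cultures, so p-values measure the spread between experiments of 2 lines, which may be partly technical. The letters A to D did not pair NPC with ESC experiments, and line was used as the block.

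High-throughput genome-wide translocation sequencing (HTGTS) amplifies DNA from a primer beside a fixed break, the bait, and reads across the join into whatever sequence the broken end was ligated to, the prey. Xrcc4 is a ligation factor of classical non-homologous end joining, and cells without it join ends by alternative routes that often use a few bases shared by both ends, called microhomology. Loss of p53, a tumour suppressor that stops or kills cells with broken DNA, lets such cells go on dividing. Most joins of a bait fall close to its own break, because the broken ends are trimmed and then rejoined, and the rest mark breaks elsewhere in the genome.

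The bait sequence and the places it was joined to are shown first, since 2 distant sites resembled it. All coordinates are mm9. The bait alignments most often started at 13000729 (81.1% of reads), on the primer side, and most often ended at 13000857 (6.59% of reads), 128 bases further on. Position 13000857 is taken as the break, and all distances are counted from it. The sources used here do not say how the break was made. The capitals in the bait line mark a 20-base stretch followed by AGG, the form that a guide for the Cas9 nuclease and its PAM would have. The bait is on the plus strand at chr12:13000808-13000907, and its bases are the consensus of the deposited reads, at least 2708 reads at each base.
bait: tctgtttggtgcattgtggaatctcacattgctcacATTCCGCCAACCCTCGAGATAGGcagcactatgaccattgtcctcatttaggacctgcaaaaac

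The first site lay on the minus strand at chr12:112278670-112278752 and the second on the minus strand at chr1:79687136-79687218. Their capitals mark the 20 bases and 3-base PAM that matched the bait stretch best.
site on chromosome 12: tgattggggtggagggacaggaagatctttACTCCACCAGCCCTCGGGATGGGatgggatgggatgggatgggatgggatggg
site on chromosome 1: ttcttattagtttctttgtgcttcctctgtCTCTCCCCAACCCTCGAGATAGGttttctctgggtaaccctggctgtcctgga

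One join to each site is shown as read, the bait first, with capitals for the bases shared by both ends. The join at chr12:112278706-112278706 used 3 shared bases and the join at chr1:79687153-79687153 used 6. Each was found in 3 reads from 3 experiments.
join at chromosome 12: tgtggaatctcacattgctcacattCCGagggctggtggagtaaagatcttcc
join at chromosome 1: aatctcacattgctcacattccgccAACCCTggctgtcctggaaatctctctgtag

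NPC experiments held 10936 to 32091 junctions and ESC experiments 7960 to 30682. Beyond 5 Mb of the break, NPC experiments kept 1803 to 8011 junctions and ESC experiments 679 to 3646. No sequencing run, going by the read names, held both cell types, so run and cell type cannot be told apart. In line 1 all 8 experiments came from 1 instrument, and NPC line 2 A, B and C came from the same one. The ESC of line 2 came from another, and NPC line 2 D from an instrument used for no other experiment here. Values within line 1 are therefore given beside many of the main results or under the processing alternatives. Median read length was 180 to 238 bases in NPC experiments and 198 to 251 in ESC experiments. Within line 1 the ranges did not overlap, at 191 to 234 in NPC and 242 to 251 in ESC. Read length and cell type thus cannot be told apart in line 1, and the part of read length in the results was not tested. 2 experiments stood apart. In NPC line 1 B, the bait alignment ended 3 or 4 bases past the break in 24.3% of joins beyond 5 Mb, against 1.60% to 6.48% in the other 15 experiments. In ESC line 1 A, 42.9% of far joins carried inserted bases, against 20.4% to 31.8% in the other ESC experiments. Results that change without these 2 experiments are named as such.

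The ends of the break were joined close to home in both cell types, and less so in NPC. Within 10 kb of the break lay 61.1% to 82.8% of junctions in NPC experiments (median 76.3%) and 75.6% to 89.1% in ESC experiments (median 81.8%). The 2 ranges overlap. NPC averaged 74.4% ± 7.64 and ESC 82.7% ± 4.08 (SD, 8 experiments each), a difference of -8.32 percentage points. The exact permutation test of cell type within line, two-sided, gave p = 0.0284 after Benjamini-Hochberg adjustment over 11 shares. The adjusted p rose to 0.144 when each position and strand was counted once per experiment. Leaving out single experiments moved it to between 0.0127 and 0.0808, past 0.05 without NPC line 1 B (0.0609) or D (0.0532), NPC line 2 D (0.0554) or ESC line 1 B (0.0808), C (0.0693) or D (0.0808).

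Junctions on other chromosomes took up a larger part in NPC. They made up 12.2% to 28.0% of NPC junctions (median 17.5%) and 6.98% to 15.9% of ESC junctions (median 9.58%). All NPC experiments of line 2 lay above all ESC experiments of line 2, and in line 1 only ESC line 1 A, at 15.9%, reached into the NPC range. The means were 18.8% ± 5.80 in NPC and 10.1% ± 2.59 in ESC (exact permutation test, adjusted p = 0.00449). The ratio of the means was 1.87. The difference was 11.0 points in line 1 and 6.50 points in line 2.

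Distant joins on chromosome 12 itself differed without any overlap. Beyond 5 Mb of the break, chromosome 12 held 3.05%, 3.65%, 1.82% and 3.03% of junctions in NPC line 1 and 2.29%, 2.69%, 2.52% and 3.72% in NPC line 2. It held 1.39%, 1.32%, 1.55% and 1.45% in ESC line 1 and 1.43%, 1.42%, 1.58% and 1.54% in ESC line 2. The lowest NPC experiment was thus above the highest ESC experiment. The difference of 1.39 points (1.46 in line 1, 1.31 in line 2) reached the smallest p that the 4900 arrangements allow, 0.00041, or 0.00224 adjusted. Shares of one library sum to a whole, so a lower share near the break goes with higher shares elsewhere. Among far junctions only, chromosome 12 held 13.4% ± 1.66 in NPC and 13.2% ± 2.81 in ESC, a difference of 0.263 points (adjusted p = 0.897, exact permutation test).

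**Figure D1:**
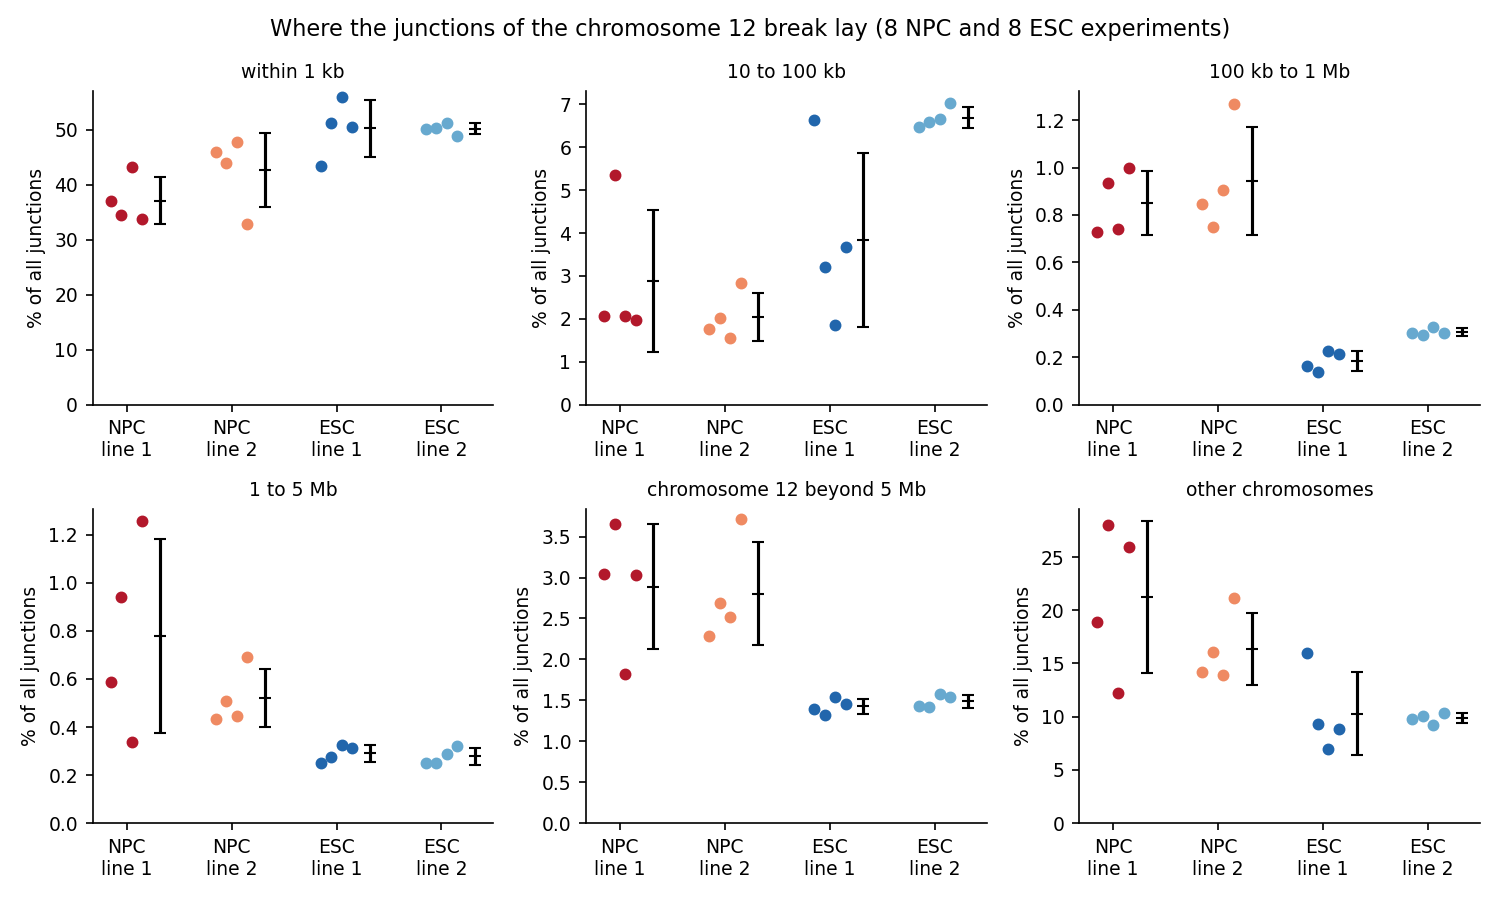
Percent of all junctions in 6 zones, by distance from the break (5 panels on chromosome 12 and 1 for other chromosomes). Each dot is an experiment, and the black bar is the mean ± SD of the 4 experiments of a group; NPC sit above all ESC from 100 kb to 1 Mb, from 1 to 5 Mb and beyond 5 Mb on chromosome 12, while within 1 kb NPC average 39.9% and ESC 50.2%.

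The zone from 10 kb to 5 Mb showed no passing difference as a whole, at 4.003% ± 1.46 in NPC and 5.80% ± 2.05 in ESC (exact permutation test, adjusted p = 0.114), and it holds opposite differences. It was divided into bands after the data had been seen, and the 18 shares added in that way were adjusted together. From 10 to 100 kb, NPC experiments held 1.55% to 5.36% of junctions (median 2.05%) and ESC experiments 1.85% to 7.03% (median 6.54%). NPC line 1 B was the highest NPC experiment, and ESC line 1 C the lowest ESC experiment. The means were 2.46% ± 1.23 and 5.27% ± 2.02 (adjusted p = 0.00997, exact permutation test). The difference was -4.66 points in line 2, where the groups did not overlap, and -0.968 points in line 1, where they did.

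From 100 kb to 1 Mb the order turned round. NPC line 1 held 0.726%, 0.937%, 0.742% and 0.997% of junctions there, and NPC line 2 held 0.848%, 0.750%, 0.905% and 1.27%. ESC line 1 held 0.163%, 0.137%, 0.226% and 0.214%, and ESC line 2 held 0.301%, 0.293%, 0.329% and 0.303%. Every NPC experiment lay above the highest ESC experiment, and the ratio of the means was 3.65. The differences of 0.665 points in line 1 and 0.636 in line 2 gave an adjusted p of 0.000918, from the smallest p that the exact permutation test allows. From 1 to 5 Mb, NPC held 0.336% to 1.26% (median 0.548%) and ESC 0.249% to 0.327% (median 0.282%), again without overlap (adjusted p = 0.000918).

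The density of junctions in 10-kb windows shows where the order turns. From 30 to 40 kb on the side beyond the break, NPC held 132 junctions per 100000 in line 1 and 98.4 in line 2, against 274 in ESC line 1 and 714 in ESC line 2. From 60 to 70 kb the values were 26.7 and 28.1 in NPC, against 40.6 and 126 in ESC. From 100 to 110 kb they were 18.8 and 32.8 in NPC (19 and 21 junctions), against 7.61 and 12.3 in ESC (3 and 14 junctions). On this side the ESC curve thus dropped steeply between 60 and 110 kb and passed below that of NPC at about 100 kb, while the NPC curve flattened. On the primer side the same windows held 116 and 89.0, 31.7 and 31.2, and 11.9 and 24.98 per 100000 in NPC lines 1 and 2, against 198 and 351, 30.5 and 81.6, and 10.2 and 24.6 in ESC lines 1 and 2. There NPC lay slightly above ESC within each line from 100 to 110 kb, while NPC line 1 stayed below ESC line 2, and from 150 to 200 kb each window was higher in both NPC lines than in either ESC line.

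**Figure D2:**
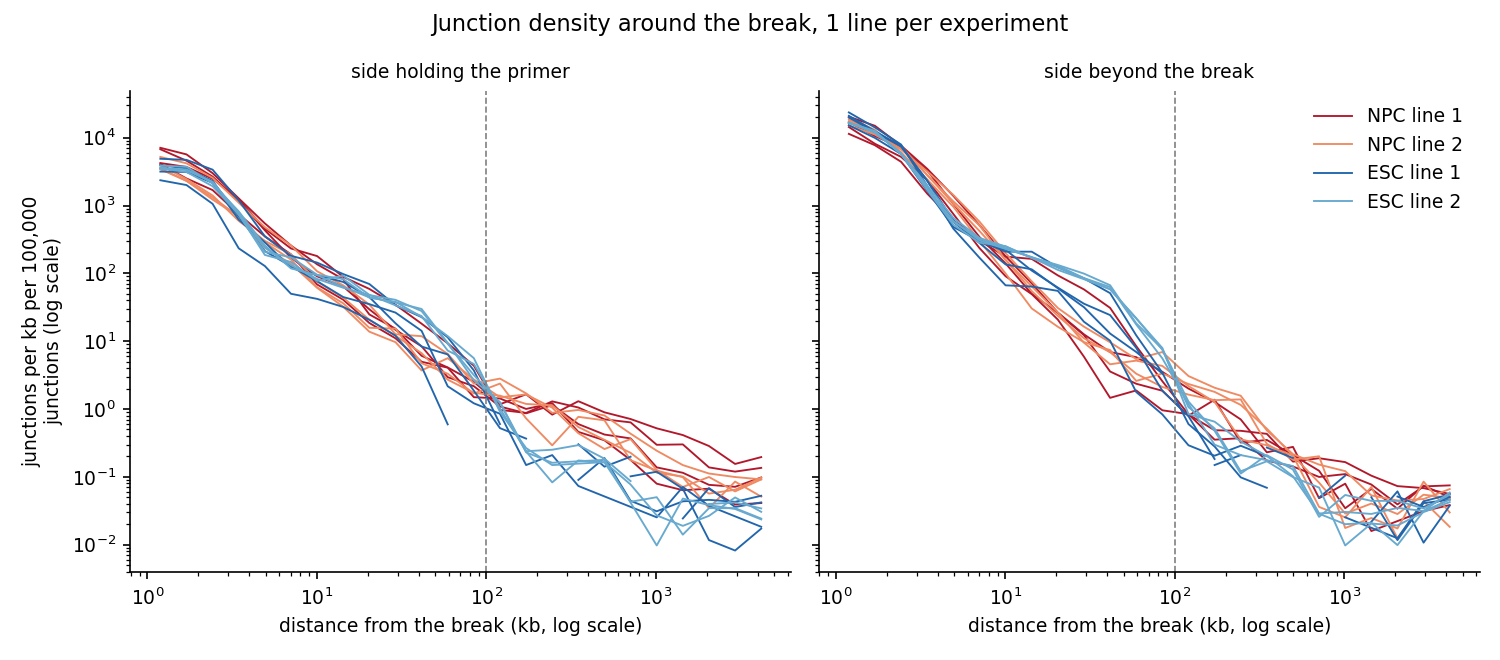
Junctions per kb per 100000 junctions (log scale) against distance from the break in kb (log scale), 1 line per experiment, left for the side holding the primer (lower coordinates) and right for the side beyond the break (higher coordinates). The dashed line marks 100 kb; beyond it the NPC lines mostly run above the ESC lines, with overlap next to 100 kb and, on the right, nearly level medians in the last window (0.049 in NPC and 0.048 in ESC), and between 10 and 100 kb on the right most ESC lines run above the NPC lines.

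Joins from 100 kb to 5 Mb took a larger share in NPC on both sides of the break. From 100 kb to 5 Mb, the primer side held 0.606% to 1.79% of NPC junctions (median 0.817%) and 0.181% to 0.300% of ESC junctions (median 0.276%). The far side held 0.462% to 0.796% of NPC junctions (median 0.516%) and 0.192% to 0.342% of ESC junctions (median 0.272%). Neither side overlapped, and both gave an adjusted p of 0.000918 in the exact permutation test. The ratio of the means was 3.82 on the primer side and 2.03 on the far side, whose difference was not tested.

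Reads across the break also fix the orientation of each prey. Within 10 kb beyond the break, prey on the plus strand run on in the direction of the bait, so they are rejoined ends with a deletion, and prey on the minus strand are inverted. Deletion joins made up 50.7% ± 8.27 of all NPC junctions and 63.3% ± 5.51 of all ESC junctions (adjusted p = 0.00735, exact permutation test, n = 8 each). Inverted joins made up 7.64% ± 1.25 and 7.66% ± 0.707. On the primer side, minus-strand prey made up 13.7% ± 2.77 in NPC and 9.35% ± 1.96 in ESC (adjusted p = 0.00245, exact permutation test), and plus-strand prey 2.28% ± 0.338 and 2.38% ± 0.452. When a position and strand counted once per experiment, neither of the 2 tested classes passed, with differences of -7.98 points (adjusted p = 0.118) and 0.210 points (adjusted p = 0.847).

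On the side beyond the break, joins within 10 kb reached farther from it in NPC. The primer side did not share this pattern. Its minus-strand prey within 1 kb made up 6.17% and 6.61% of pooled junctions in NPC lines 1 and 2, against 2.77% and 3.05% in ESC. From 1 to 3 kb they made up 6.70% and 4.45% in NPC, against 5.35% and 5.03% in ESC, and these bands were not tested. Of the inverted joins within 10 kb beyond the break, 44.6%, 31.2%, 42.5% and 42.4% lay over 1 kb away in NPC line 1. In NPC line 2 they were 36.7%, 38.6%, 40.3% and 48.4%. The shares were 23.9%, 23.01%, 22.5% and 23.4% in ESC line 1 and 25.7%, 24.2%, 24.9% and 24.5% in ESC line 2. The ESC experiments kept within a narrow band, and NPC line 1 B, at 31.2%, was the lowest of NPC but still above them. The difference was 16.6 points (16.9 in line 1, 16.2 in line 2; adjusted p = 0.000918, exact permutation test). Of the deletion joins, 37.1% to 52.9% lay over 1 kb away in NPC (median 44.8%) and 35.1% to 38.9% in ESC (median 36.6%), a difference of 8.42 points (adjusted p = 0.00245, exact permutation test). The deletion result did not pass when each position was counted once (4.71 points, adjusted p = 0.102), and the inversion result did (its adjusted p was at most 0.0128 over the 5 alternatives that kept all lines).

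The shortest joins mirrored these values. Within 1 kb of the break lay 32.9% to 47.7% of junctions in NPC (median 40.1%) and 43.4% to 56.0% in ESC (median 50.4%). Within each line the groups did not overlap. The difference was -10.4 points (adjusted p = 0.000918), and -5.21 points when each position was counted once (adjusted p = 0.111, exact permutation test). The sides went opposite ways within 1 kb. Pooled by line, the side beyond the break held 29.9% and 33.9% in NPC lines 1 and 2, against 45.7% and 45.3% in ESC. The primer side held 7.33% and 8.05% in NPC, against 4.03% and 4.88% in ESC, and the sides were not tested apart. From 1 to 10 kb, NPC held 34.5% ± 3.96 and ESC 32.5% ± 1.61 (adjusted p = 0.227, exact permutation test).

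Beyond 10 kb and up to 5 Mb, orientation was compared on each side. On the far side, plus-strand prey made up 77.7% ± 3.72 in NPC and 83.4% ± 3.28 in ESC, a difference of -5.76 points (adjusted p = 0.0123, exact permutation test). The groups did not overlap in line 2 (-6.88 points) and did in line 1 (-4.64 points). On the primer side, plus-strand prey made up 35.7% ± 4.49 in NPC and 35.2% ± 8.01 in ESC (adjusted p = 0.897, exact permutation test).

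The bait end itself was trimmed further in NPC before distant joins. Of the junctions beyond 5 Mb, 32.8% to 65.6% had lost 10 or more bases of the bait in NPC (median 48.96%) and 29.3% to 38.8% in ESC (median 37.0%). NPC line 1 B was the lowest NPC experiment and the only one inside the ESC range. The difference of 14.2 points was 12.8 in line 1 and 15.6 in line 2 (adjusted p = 0.00245, exact permutation test).

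The bases at the join of distant junctions were compared next. An overlap counts the bases that both alignments share, a blunt join has none, and an insert holds bases that neither alignment covers. Among joins with an overlap, the mean overlap was 3.26, 2.91, 3.23 and 3.30 bases in NPC line 1 and 3.19, 3.24, 3.35 and 3.33 bases in NPC line 2. It was 3.84, 3.63, 3.61 and 3.56 bases in ESC line 1 and 3.50, 3.56, 3.49 and 3.61 bases in ESC line 2. All NPC experiments were below all ESC experiments. The difference was -0.371 bases (-0.483 in line 1, -0.259 in line 2), with an adjusted p of 0.00224 from the smallest p that the exact permutation test allows.

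Short overlaps of 1 to 3 bases were more frequent in NPC, at 43.3% to 53.6% (median 49.1%), than in ESC, at 31.7% to 47.0% (median 42.8%; adjusted p = 0.00245, exact permutation test). Overlaps of 4 or more bases made up 23.6% ± 3.96 in NPC and 24.1% ± 3.29 in ESC (adjusted p = 0.897, exact permutation test). At the long end, overlaps of 10 bases made up 0.311% ± 0.0982 of far joins in NPC and 0.572% ± 0.237 in ESC, and overlaps of 12 bases 0.203% ± 0.0992 and 0.376% ± 0.213, given as a description. Blunt joins made up 5.83% to 23.5% in NPC (median 6.79%) and 5.10% to 7.66% in ESC (median 6.12%; adjusted p = 0.123, exact permutation test). The value of 23.5% is that of NPC line 1 B. In it 607 of 1247 blunt far joins had a bait ending 3 or 4 bases past the break.

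Small inserts separated the cell types. Inserts of 1 to 3 bases were found in 8.35%, 7.70%, 7.65% and 7.55% of far joins in NPC line 1 and in 7.69%, 8.37%, 7.76% and 7.93% in NPC line 2. They were found in 10.6%, 10.0%, 8.98% and 10.2% in ESC line 1 and in 9.94%, 10.1%, 10.1% and 10.4% in ESC line 2. The 2 cell types did not overlap, and the difference was -2.17 points, -2.14 in line 1 and -2.19 in line 2 (adjusted p = 0.000918, exact permutation test). Inserts of any length made up 18.9% ± 3.36 in NPC and 27.4% ± 7.58 in ESC (adjusted p = 0.0144, exact permutation test), with a difference of -14.4 points in line 1 and -2.65 in line 2. The spread lay in the longer inserts. Those of 10 or more bases made up 3.50% to 8.71% in NPC and 4.68% to 22.97% in ESC (adjusted p = 0.0863, exact permutation test), with ESC line 1 A at 22.97%. NPC line 2 D listed 0 inserts of 4 to 9 bases among its 4537 far joins, where the other 15 experiments listed 52 to 400 each. Its inserts of any length made up 11.4%. NPC line 2 A, B and C held 20.4%, 21.7% and 22.4%, and ESC line 2 held 20.4% to 22.6%. The line 2 difference in inserts of any length thus rests on NPC line 2 D, the only experiment from its instrument.

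**Figure D3:**
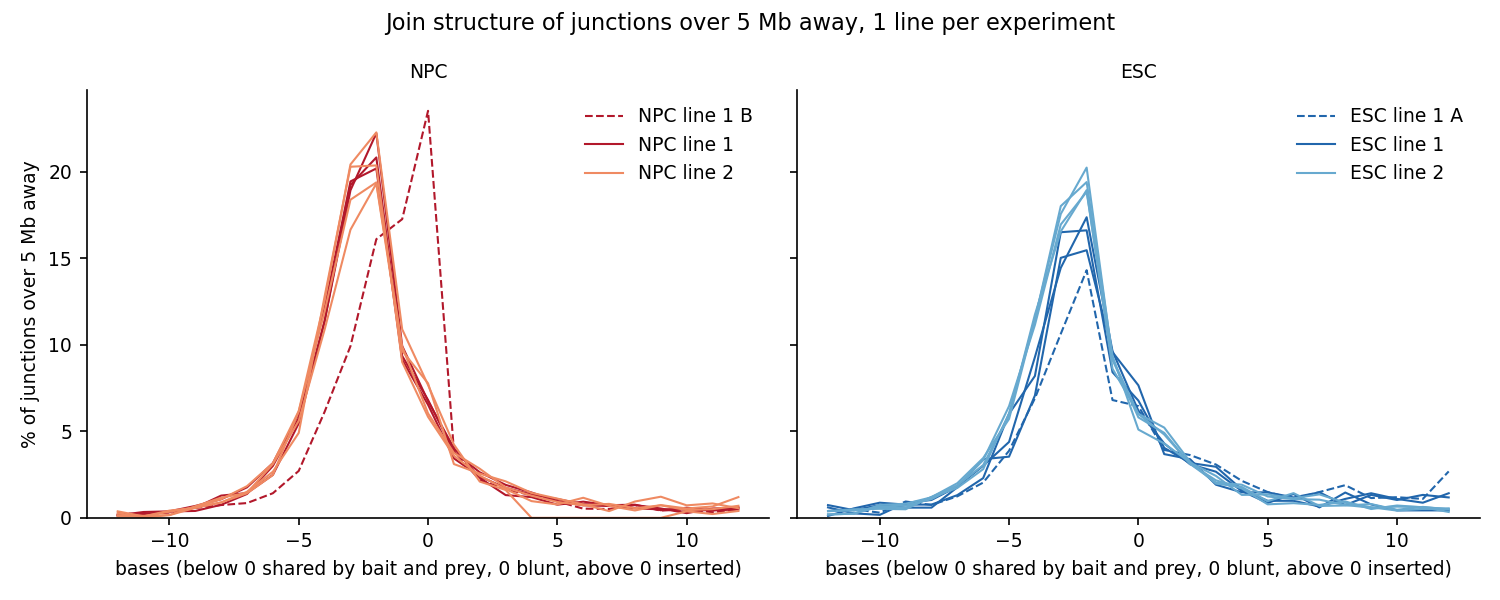
Percent of junctions over 5 Mb away (vertical axis) against the number of bases shared by bait and prey (below 0), blunt joins (0) or inserted bases (above 0), left for NPC and right for ESC, 1 line per experiment. The lines peak at 2 shared bases in 15 experiments and at blunt joins (23.5%) in NPC line 1 B, and the dashed lines mark that experiment and ESC line 1 A.

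Along chromosome 12, the band nearest the centromere held a larger share of the far joins in NPC. It is the only far band on the primer side, so nearness to the centromere and to the break cannot be told apart. The most centromere-near 5-Mb band, 10 to 5 Mb below the break, held 1.34% to 2.32% of NPC far junctions (median 1.60%) and 0.646% to 1.36% of ESC far junctions (median 1.00%). Counted up to 8 Mb on the chromosome, the shares were 1.66% ± 0.307 in NPC and 0.958% ± 0.214 in ESC (adjusted p = 0.000918, exact permutation test), without overlap in either line. Above 110 Mb, at the telomere end, the shares were 1.51% ± 0.388 in NPC and 1.13% ± 0.362 in ESC (adjusted p = 0.0456, exact permutation test), with overlap in both lines. That call was lost without NPC line 1 A or C, NPC line 2 A, C or D, ESC line 1 A or D, or ESC line 2 A, B or D (adjusted p up to 0.101), and when line was not used as a stratum (0.0733). It also turned on the limit, which was moved by 1 Mb after its values were seen: a limit 1 Mb higher, the one first used, gave 1.34% ± 0.353 in NPC and 0.944% ± 0.348 in ESC (adjusted p = 0.0225, same test), and a limit 1 Mb lower gave 1.69% ± 0.420 in NPC and 1.34% ± 0.381 in ESC (adjusted p = 0.102). The band from 5 to 10 Mb beyond the break lay the other way, at 0.360% ± 0.117 in NPC and 0.571% ± 0.160 in ESC, as a description.

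**Figure D4:**
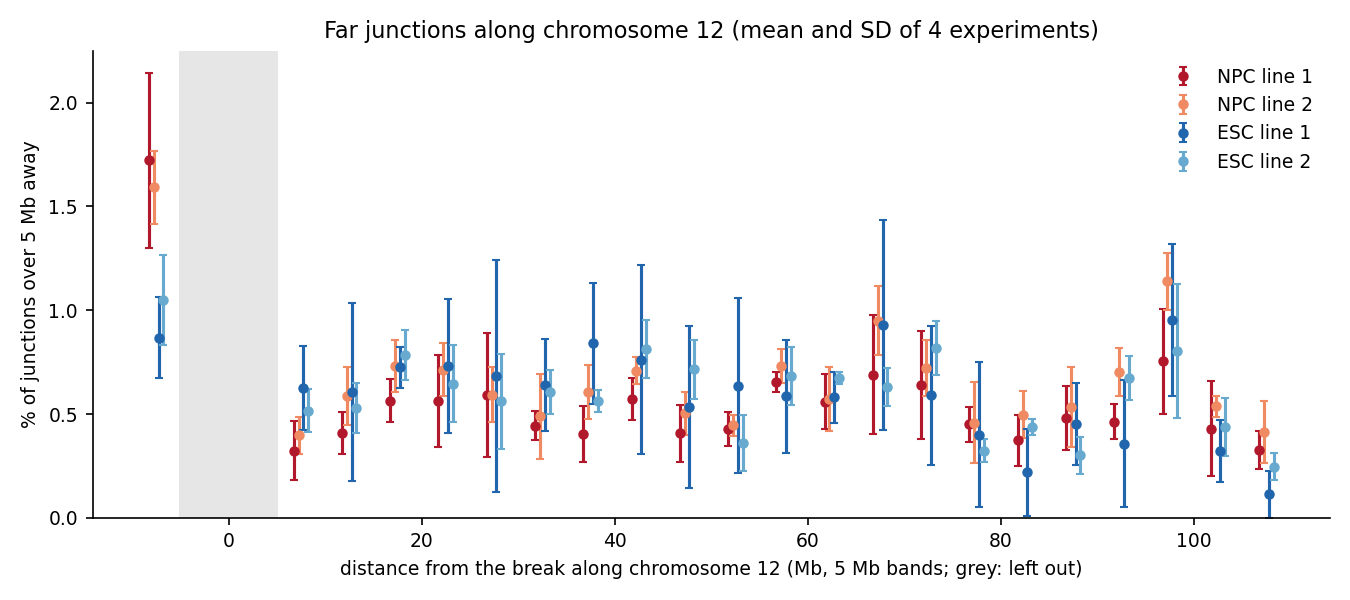
Percent of junctions over 5 Mb away that fell in each 5-Mb band of chromosome 12, against distance from the break in Mb; points are means of 4 experiments and bars are SD, and the grey zone was left out. NPC are higher in the lowest band (1.66% against 0.959% in ESC) and in the last band (0.371% against 0.180%), and lower in the band 5 to 10 Mb beyond the break.

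No other chromosome was set apart by cell type. Of the junctions off chromosome 12, 0 of 19 chromosome shares passed after adjustment, and 3 had an unadjusted p below 0.05 (exact permutation test). Chromosome X held 2.46% ± 0.555 in NPC and 3.30% ± 0.504 in ESC, and chromosome 10 held 4.77% ± 0.252 and 5.44% ± 0.879 (adjusted p = 0.132 for both). Chromosome 1 held 7.25% ± 0.706 and 6.61% ± 0.535 (adjusted p = 0.248).

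Regions were then compared as bins of 500 kb outside 5 Mb of the break, with edgeR's quasi-likelihood test and Benjamini-Hochberg adjustment. Bins called at an adjusted p below 0.05 were 3 of 469 tested, or 0.64%, all higher in NPC and 0 lower. DESeq2 called 11 higher and 0 lower. Off chromosome 12, edgeR called 5 of 289 bins, or 1.73%, all higher in NPC and 0 lower, and DESeq2 called 0. At an unadjusted p below 0.05, edgeR listed 57 and 37 bins. These calls lean on the scaling. With TMM factors, the median log2 ratio of NPC over ESC was 0.30 over the 469 bins and 65.2% of bins were higher in NPC; with total junctions as library size the median was -0.11 and 42.4% were higher. Off chromosome 12 the medians were 0.36 and -0.25, and 71.6% and 35.3% of bins were higher. With DESeq2's scaling the medians were 0.69 over the 469 bins and 0.54 off chromosome 12, and 79.7% and 75.4% of bins were higher. Its 11 calls thus come from the scaling that lies furthest towards NPC. With totals, 1 of the 469 bins and 0 of the 289 were called. On simulated counts the test recovered 7% of 2-fold and 49% of 4-fold changes, so most such changes would be missed at this depth.

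Promoter sequences from RefSeq (GRCm38.p6) that were matched letter by letter to the reads gave the gene context of a bin, since coordinates were not converted between builds. Of 32851 promoters, 1591 were placed in order in that way. A bin may hold genes that no read reached.

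The bin called under both scalings was chr12:112000001-112500000. It held 18, 2, 7 and 15 junctions in NPC line 1 and 16, 6, 8 and 12 in NPC line 2. It held 1, 0, 1 and 1 in ESC line 1 and 1, 0, 4 and 5 in ESC line 2. Per 10000 far junctions that is 23.2 in pooled NPC and 7.34 in pooled ESC, a ratio of 3.15 (95% exact interval 1.75 to 6.17, for counting error only). The edgeR log2 ratio was 2.22 ± 0.48 (SE; adjusted p = 0.00170), and 1.94 with totals (adjusted p = 0.0142). Promoters of Ankrd9, Gm51959 and Rcor1 were matched inside it; Rcor1 encodes CoREST, a corepressor that works with REST to silence neuronal genes outside neurons.

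Much of it lay in 1 kb. All 40 junctions at chr12:112278001-112279000 came from NPC. Outside that kb the bin held 44 NPC and 13 ESC junctions, or 12.1 and 7.34 per 10000 far junctions. Within 50 bases of 112278706, the site printed above, NPC line 1 experiments held 5, 1, 4 and 8 junctions and NPC line 2 experiments 6, 2, 3 and 5. All 8 ESC experiments held 0, which with 17701 far junctions allows a share of up to 0.0169%. The NPC rate was 9.38 per 10000, at least 5.53-fold higher than a floor of 3 counts over all ESC. The 34 junctions had 22 distinct positions, 24 on the plus and 10 on the minus strand. Placed by its matched promoter, Rcor1 starts on the plus strand at 112277577, so the site lies 1129 bases past that start.

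The site resembled the bait. Compared with the bait stretch, it had 4 differences in 20 bases, T2C, G6A, A10G and A17G, counted from 1 at the 5′ end with the bait's base first, and it was followed by GGG. A cut 3 bases before the PAM would end at 112278705 there, 1 base from the median junction, and at 13000860 in the bait, 3 bases past the most frequent bait end. The chromosome 1 site had A1C, T3C, C4T and G6C and was followed by AGG, with such a cut at 79687171, 13 bases above the median junction. These comparisons were added after the data had been seen, and 5 bait stretches next to GG, whose cut would lie within 8 bases of the break, were compared. The one shown matched the 2 sites best, so its 4 differences are a description; the other 4 stretches had 5 to 11 mismatches there. In all, 18 windows of 100 bases held 6 or more distinct far positions. The stretch shown had 4 mismatches in 2 of them and 10 to 14 in the others that could be read, where the other 4 stretches had 9 to 17. The other 16 windows held 100 NPC and 90 ESC junctions, out of 36258 and 17701 far junctions.

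The same site was filled in other libraries with this bait. NPC given aphidicolin, an inhibitor of replicative DNA polymerases, held 24 junctions of 46411 there in line 1 and 11 of 16319 in line 2. ESC given aphidicolin held 0 of 8482 and 0 of 9136. All 16 pools with baits on chromosomes 7 and 15 held 0, among them NPC pools of up to 88541 far junctions. The chromosome 1 site held 14 junctions in 5 NPC experiments and 2 in 2 ESC experiments, 15 of the 16 on the minus strand. With aphidicolin it held 9 and 4 in NPC and 0 and 0 in ESC, and in pools with other baits only NPC line 2 with the chromosome 15 bait and aphidicolin held any, at 2 of 66794. Whether ESC differ from NPC in breaks at these sites or in the cutting that made the bait break was not tested.

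The chromosome 1 bin with the second site, chr1:79500001-80000000, was called in the fit off chromosome 12. It held 3, 0, 5 and 15 junctions in NPC line 1 and 1, 2, 1 and 5 in NPC line 2. ESC line 1 held 0 in all 4, and ESC line 2 held 0, 0, 1 and 2. The log2 ratio was 2.63 ± 0.75 (edgeR, adjusted p = 0.0416), and 2.08 with totals (adjusted p = 0.284). The busiest kb took 17 of its 35 junctions, so 17 NPC junctions and 1 ESC junction remained elsewhere in the bin. Gm39666 had its promoter inside.

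At chr9:41000001-41500000, NPC line 1 held 4, 4, 5 and 4 junctions and NPC line 2 held 1, 1, 0 and 2, and all ESC experiments held 0. The NPC rate was 5.79 per 10000 far junctions, and the ESC count of 0 allows up to 1.69 (edgeR adjusted p = 0.0417, and 0.0166 in the fit off chromosome 12; 0.129 with totals). A bin was tested only with 20 or more junctions over all experiments. NPC held 36258 far junctions and ESC 17701, so that filter lets in bins high in NPC more readily than bins high in ESC. This bin passed it through NPC alone, as did the low-count bins at 118.5 and 119 Mb of chromosome 12 and on chromosome 14. So did every other named bin except that of chromosome 17, which held 220 NPC and 96 ESC junctions. In the bins other than that one, ESC junctions alone stayed below 20, and the calls carry that limit. The lack of bins called lower in NPC in the main fits carries it too. All 21 junctions at chr9:41000001-41500000 had positions of their own. The bin lies between the matched promoters of Jhy and Gm36390, and of the genes RefSeq orders between these the longest is Mir100hg, a host gene of small RNAs.

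Towards the end of chromosome 12, chr12:118500001-119000000 held 4, 2, 1 and 3 junctions in NPC line 1 and 2, 5, 0 and 5 in NPC line 2, against 1 in all ESC, in line 2 A. The ratio of pooled rates was 10.7 (95% exact interval 1.74 to 443), and the log2 ratio 3.27 ± 0.90 (edgeR, adjusted p = 0.0417; 0.110 with totals). Gm5441 had its promoter inside, and Ptprn2, a receptor-type phosphatase-like protein of secretory granules, is the longest gene that RefSeq orders between the flanking matched promoters. The next bin, chr12:119000001-119500000, held 23 junctions in NPC and 1 in ESC but did not pass (log2 ratio 3.06 ± 0.90, edgeR adjusted p = 0.0660).

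At the other end, chr12:5000001-5500000 held 12, 20, 8 and 20 junctions in NPC line 1 and 3, 5, 10 and 6 in NPC line 2, against 1, 3, 0 and 0 in ESC line 1 and 6, 5, 1 and 2 in ESC line 2. Its log2 ratio of 1.55 ± 0.45 did not pass either (edgeR adjusted p = 0.0660). The promoters of Klhl29 and 2810032G03Rik lay inside.

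Off chromosome 12, 3 more bins passed. The bin chr9:121500001-122000000 held 5, 5, 15 and 4 junctions in NPC line 1 and 1, 3, 1 and 11 in NPC line 2, against 7 in all ESC (log2 ratio 2.17 ± 0.63, edgeR adjusted p = 0.0416). It holds the promoters of Cyp8b1, an enzyme of bile acid synthesis, and Pomgnt2, a glycosyltransferase of the endoplasmic reticulum. The bin chr14:64000001-64500000 held 21 junctions over all 8 NPC experiments and 2 in ESC (2.73 ± 0.81, adjusted p = 0.0451). The bin chr17:39500001-40000000 held the most of the named bins, 14 to 57 per NPC experiment (median 25) and 2 to 22 per ESC experiment (median 13). Its rates overlapped, at 60.7 and 54.2 per 10000 far junctions in pooled NPC and pooled ESC, a ratio of 1.12 (95% exact interval 0.876 to 1.44). The log2 ratio of 0.98 ± 0.24 (edgeR adjusted p = 0.0132) was 0.32 with totals (adjusted p = 0.561), so that call rests on the scaling. Of its 316 junctions, 67 lay at chr17:39981001-39982000, 50 from NPC and 17 from ESC, and 4 of the 18 narrow windows fell between 39980183 and 39985344. The nearest matched promoter above it was AY036118. With totals as library size, none of these 3 bins passed, nor did the bins on chromosome 1 and at 41 Mb on chromosome 9.

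**Figure D5:**
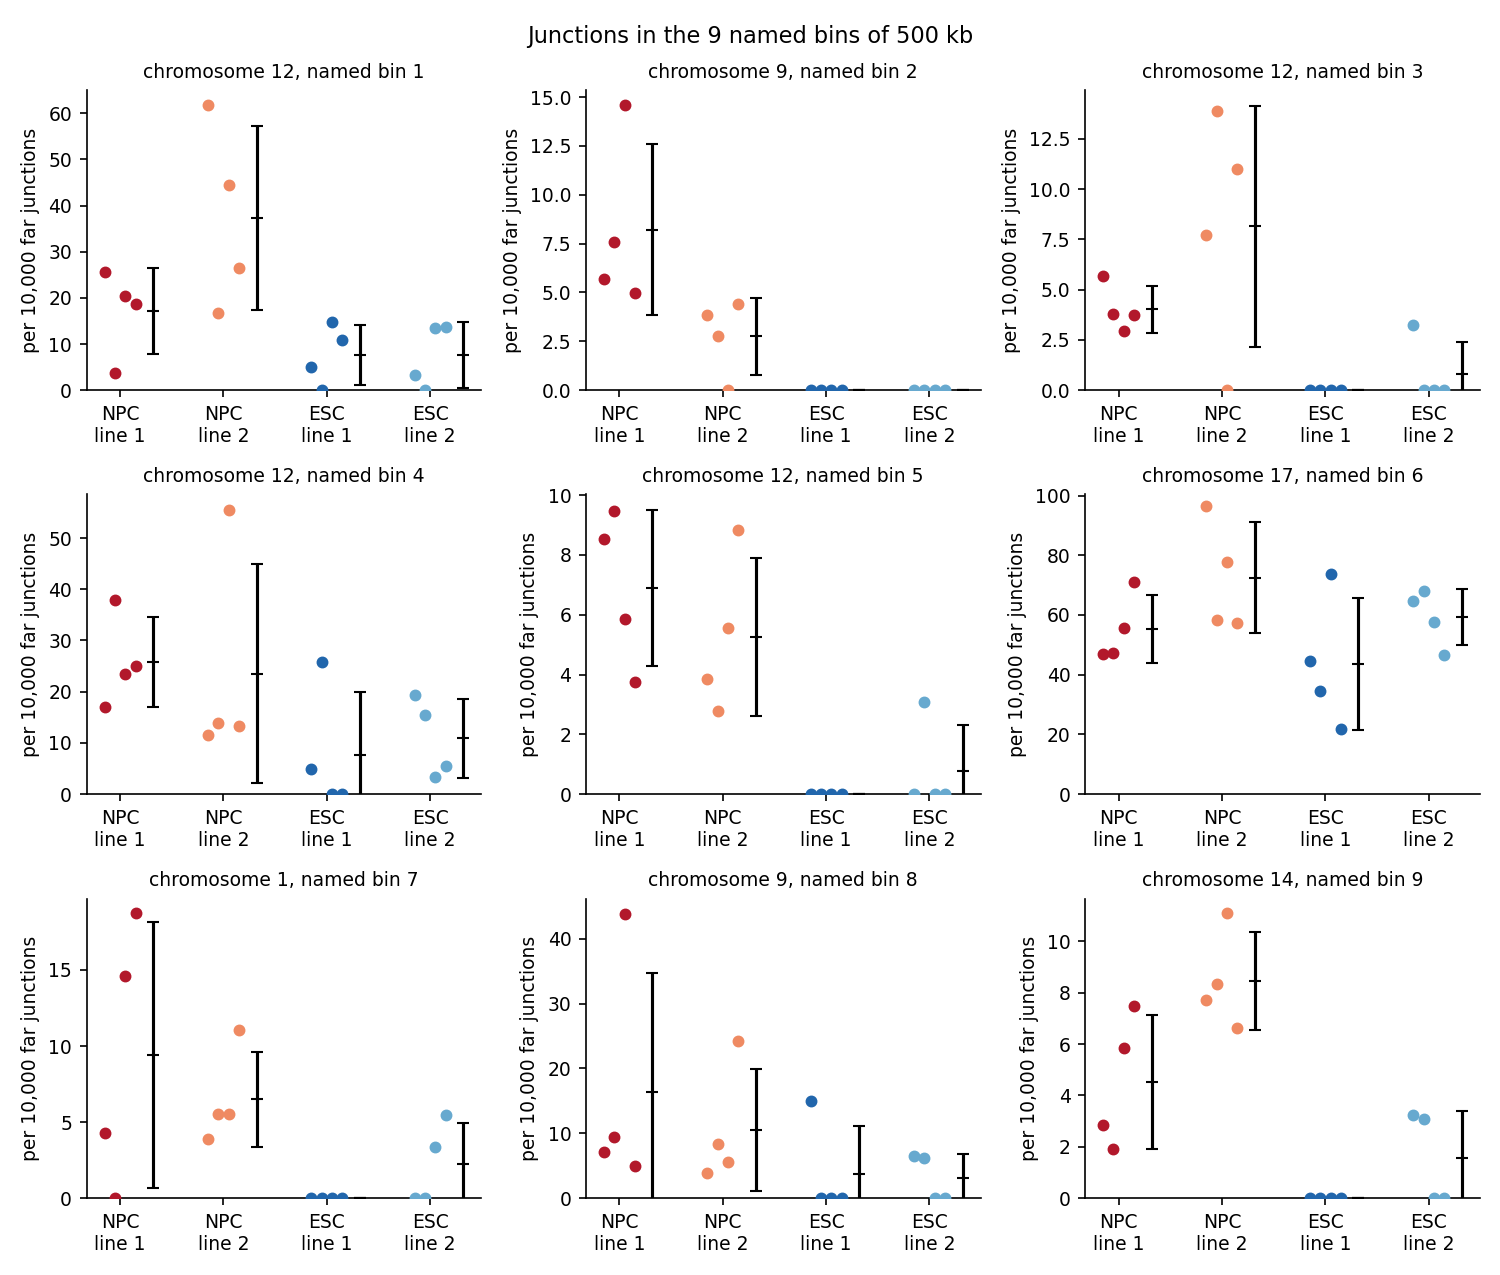
Junctions per 10,000 far junctions in the 9 named bins, 1 panel per bin, in the order chromosome 12 (112.0 Mb), 9 (41.0 Mb), 12 (118.5, 5.0 and 119.0 Mb), 17, 1, 9 (121.5 Mb) and 14; dots are experiments and black bars the mean ± SD of 4. In panel 1 (chromosome 12, 112.0 to 112.5 Mb) NPC reach 61.8 and ESC 14.7, and in panel 2 (chromosome 9, 41.0 to 41.5 Mb) all ESC are at 0, while the groups overlap in the panel of chromosome 17.

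Single experiments decided several of these calls in the edgeR fits. The bin at 112 Mb of chromosome 12 passed without any 1 of the 16 experiments (adjusted p of 0.000113 to 0.0189). The bin at 41 Mb of chromosome 9 was lost without ESC line 1 A, C or D or ESC line 2 C (up to 0.0781), and the bin at 118.5 Mb of chromosome 12 without the same ESC line 1 experiments or ESC line 2 B, C or D (up to 0.112). The bin of chromosome 17 was lost without NPC line 1 C, NPC line 2 D or ESC line 1 B or C (up to 0.196). The bin of chromosome 1 was lost without NPC line 1 C or D, NPC line 2 D or any ESC line 1 experiment (up to 0.161). The bin at 121.5 Mb of chromosome 9 was lost without NPC line 1 C, NPC line 2 D, ESC line 1 B, C or D or ESC line 2 C or D (up to 0.240), and the bin of chromosome 14 without 10 of 15 experiments (up to 0.161). The bin at 5 Mb of chromosome 12 passed without 9 of the 16 experiments (down to 0.0172), and the bin at 119 Mb without 5 of 14 (down to 0.0158). The number of bins called ran from 1, without ESC line 1 C, ESC line 1 D or ESC line 2 C, to 9, without NPC line 1 B, and off chromosome 12 from 0, without NPC line 1 C, NPC line 2 D or ESC line 1 B or C, to 7, without NPC line 2 A or ESC line 2 B.

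The 9 bins were looked up in the DMSO libraries of the other baits, which share no reads with these. With the chromosome 7 bait, 8 of 9 were higher in NPC than in ESC in line 1 and 7 of 9 in line 2, against 54.1% and 59.6% of all bins tested. With the chromosome 15 bait it was 7 of 9 and 5 of 9, against 58.3% and 56.4%. The ESC pools were smaller, at 4700 and 5656 far junctions against 14545 and 21202 in NPC with the chromosome 7 bait. With the chromosome 15 bait they held 7935 and 6116, against 36265 and 58562. Some signs rest on few counts: with the chromosome 7 bait, the chromosome 1 bin held 2 NPC junctions against 0 in line 1 and 1 against 0 in line 2. The signs were not tested. At chr9:41000001-41500000 the rates per 10000 far junctions with the chromosome 15 bait were 6.34 in NPC line 1 and 4.78 in NPC line 2, against 3.78 in ESC line 1 and 1.64 in ESC line 2. With the chromosome 7 bait they were 2.75 and 6.60 in NPC, against 2.13 and 0 in ESC, whose counts were 1 and 0. The bin at 112 Mb of chromosome 12 held 3.31 and 2.73 in NPC lines 1 and 2 with the chromosome 15 bait, against 2.52 and 8.18 in ESC, so line 2 went the other way. With the chromosome 7 bait it held 4.81 and 1.41 in NPC, against 2.13 and 0 in ESC. The bin of chromosome 17 was lower in NPC in both lines with the chromosome 15 bait, at 12.96 and 14.5, against 16.4 and 26.2 in ESC. With the chromosome 7 bait it was higher, at 18.6 and 19.8 in NPC, against 14.9 and 7.07 in ESC.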

How the data were processed

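Genomic DNA was turned into HTGTS libraries with LAM-PCR (linear amplification from the bait), per the labels' protocols. The authors aligned reads with Bowtie2 to mm9, per the submitters' processing notes; the junction caller and its settings are not given among the sources at hand. The deposited tables list 1 junction read per row, per the file headers, so the values are raw counts without normalization, and their filter columns, the duplicate column among them, held 0 in every row used. Rows were reduced to 1 per read name within a table, and the last column gave the experiment letter.

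From these, shares per experiment were computed and compared by the exact two-sided permutation test within line (4900 arrangements, smallest p 0.00041), with Benjamini-Hochberg adjustment over 11 shares, over 18 further shares and over 19 chromosomes, using Python 3.11.15 and scipy 1.17.1. Bins of 500 kb with 20 or more junctions were tested with edgeR 4.0.16 (R 4.3.3, TMM, quasi-likelihood, line as a block) and with DESeq2 1.42.0 as an alternative. The test was tried on simulated data: of 469 bins with 200 changed, 7% of 2-fold and 49% of 4-fold changes were recovered. Mitochondrial and Y junctions (68) were left out of bins. Reads carry no molecular identifiers, so intervals (95%, exact) and floors of 3 counts cover counting error only.

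Named bins were those past the threshold with one sign in both lines, up to 12 in each direction and up to 3 in each direction on chromosome 12, or the 5 with the smallest p. The members were set by the table labels and the lists by the rule above, both with earlier results of these data known. The 18 further shares, the narrow windows and the bait comparison were added after seeing the data. Alternatives were other bin sizes, scalings, filters, blocks, distance limits, depth, positions counted once, and each line and experiment left out.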

Additional observations from a re-analysis of the deposited data

Results flagged for a closer look

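Of 152 groups of 4 experiments examined, 14 values lay apart from the other 3 of their group by Dixon's criterion at the 95% level. For continuous values chance meets it in about 1 in 20 groups. That rate does not hold for bins with few junctions. There, 3 experiments at 0 and 1 above 0 are always flagged, and 4 at 0 never are. NPC line 1 B accounts for 4 of them: blunt far joins at 23.5%, overlaps of 4 or more bases at 14.2%, junctions from 10 to 100 kb at 5.36% and inverted joins over 1 kb at 31.2%. It also held 21 junctions on chromosome Y, where the other 15 experiments held 0 to 2. Without it and ESC line 1 A, the values are given under the processing alternatives.

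NPC line 2 D accounts for 3: overlaps of 4 or more bases at 27.3%, inserts of 10 or more bases at 3.50%, and plus-strand joins within 10 kb beyond the break at 43.7% of all junctions. NPC line 2 C stood apart in the plus-strand share on the primer side, at 41.8%, and in the bin at 5 Mb of chromosome 12, at 55.5 per 10000 far junctions. ESC line 1 A stood apart in overlaps of 1 to 3 bases, at 31.7%, and in the bin at 121.5 Mb of chromosome 9, at 14.9 per 10000, next to 3 experiments at 0. NPC line 1 C stood apart in that same bin, at 43.8 per 10000. The single ESC junctions in the bins at 118.5 and 119 Mb of chromosome 12 put ESC line 2 A at 3.23 and ESC line 2 B at 3.09 per 10000, next to 3 experiments at 0.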

How the results depend on the processing

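Values are NPC minus ESC, in percentage points unless said otherwise, and p-values are adjusted ones of the exact permutation test. The cause of each change was not tested. The shares of chromosome 12 beyond 5 Mb, of 100 kb to 1 Mb, of 1 to 5 Mb, of inverted joins over 1 kb and of inserts of 1 to 3 bases, and the mean overlap, kept their direction and their call in every alternative that kept both lines. No share passed a test of a difference between the lines (29 tested, lowest adjusted p 0.225).

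In the exact permutation test, counting each position and strand once gave -8.32 within 10 kb (p = 0.144), -5.05 from 10 kb to 5 Mb (now called, p = 0.0277), -5.21 within 1 kb (0.111), -3.11 from 1 to 10 kb (reversed, not called), 4.71 for deletion joins over 1 kb (0.102), -7.98 for plus-strand joins beyond the break (0.118) and 0.210 for minus-strand joins on the primer side (0.847). It left 2 bins called off chromosome 12.

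With 1 line of 4 against 4 experiments the smallest p is 0.0286. Of 21 called shares, 8 lost their call in line 2 alone, 4 of them at that smallest p, and 21 in line 1 alone, 12 of them at it. Line 2 alone gave -4.03 within 10 kb, 1.31 on chromosome 12 beyond 5 Mb, 6.50 on other chromosomes, -2.65 for inserts, -0.259 bases of mean overlap, -6.88 for the plus strand on the far side, 3.51 from 1 to 10 kb (called), 0.473 above 110 Mb, 1.91 for inserts of 10 or more bases (reversed) and 3.46 for overlaps of 1 to 3 bases; 1 bin was called higher, 1 lower and 0 off chromosome 12. Line 1 alone gave -12.6 within 10 kb, 0.186 from 10 kb to 5 Mb (reversed), 1.46 on chromosome 12 beyond 5 Mb, 11.0 on other chromosomes, -0.926 for chromosome 12 among far junctions (reversed), -14.4 for inserts, -0.483 bases, 0.8292 for overlaps of 4 or more (reversed), -1.99 (reversed) and -4.64 for the plus strand on the primer and far sides, -13.2 within 1 kb, -0.968 from 10 to 100 kb, 0.665 from 100 kb to 1 Mb, 0.489 from 1 to 5 Mb, 7.07 and 16.9 for deletion and inverted joins over 1 kb, 12.8 for bait loss, 0.852 below 8 Mb, 0.291 above 110 Mb, -2.14 for inserts of 1 to 3 bases, 9.44 for overlaps of 1 to 3, 0.894 and 0.260 for 100 kb to 5 Mb on the primer and far sides, -18.1 for plus-strand joins beyond the break and 5.51 for minus-strand joins on the primer side; 0 bins were called, and 1 off chromosome 12.

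Without line as a stratum, 0.382 above 110 Mb was not called, nor were 0.349 and 0.362 with that limit 1 and 2 Mb lower; 1 and 2 Mb higher gave 0.399 and 0.489 (called). That limit was chosen and moved after seeing the data. Limits of 1 Mb gave -2.16 from 10 kb (called), and 10 Mb gave -0.176 for chromosome 12 among far junctions (reversed). Without the 2 experiments that stood apart, the values were -1.79 from 10 kb to 5 Mb (called), -0.476 for chromosome 12 among far junctions, 0.411 for overlaps of 4 or more and -0.885 for the plus strand on the primer side (these 3 reversed), and 3.03 from 1 to 10 kb (called), with 5 and 1 bins. The letters gave correlations of -0.151 to 0.120 between same-lettered experiments, so they share only a letter; with letter pairs as a replicate block, inserts (-8.53), the plus strand on the far side (-5.76), 10 to 100 kb (-2.81) and above 110 Mb (0.382) were not called, and 1 and 0 bins were.

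Bins called higher, over all and off chromosome 12, were 10 in 1 Mb bins (all), 1 and 1 with NPC thinned to ESC depth, 10 and 6 with 1 and 10 Mb left out (all), 1 and 0 with totals, 11 and 0 with DESeq2, 1 and 0 with no filter, 1 and 1 with filterByExpr (and 1 and 1 lower), 7 with no line block (all) and 0 and 0 with 4 pools. Without single experiments they ran from 1 to 9 and from 0 to 7; chromosome shares called ran from 0 to 1. The same ranges were -10.2 to -6.62 within 10 kb, -2.25 to -1.34 from 10 kb to 5 Mb, -0.590 to 1.09 for chromosome 12 among far junctions, -1.18 to 0.790 for overlaps of 4 or more, -1.24 to 2.55 for the plus strand on the primer side, 1.14 to 3.29 from 1 to 10 kb and 0.300 to 0.452 above 110 Mb. Counts of 20 to 30 junctions per bin over 16 experiments limit the bins to large changes.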

Other observations

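The libraries with the chromosome 12 bait also held junctions at the breaks of the other baits. Within 10 kb of the chromosome 7 bait break there were 2 junctions in NPC, both in NPC line 1 B, and 14 in ESC, in all 4 experiments of ESC line 2 and in none of ESC line 1. Within 10 kb of the chromosome 15 bait break there was 1 in NPC and 0 in ESC, where 17701 far junctions allow up to 0.0169%. Which libraries were prepared side by side was not tested.

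Of the far junctions whose first 40 prey bases could be read, 0.920% ± 0.220 opened in a RefSeq promoter sequence in NPC and 1.05% ± 0.293 in ESC (8 experiments each), a difference of -0.134 points (exact permutation test, adjusted p = 0.314). The matched promoter nearest to the break on the primer side with a named protein product was that of Mycn, a growth-promoting transcription factor, at -52.3 kb, and on the far side that of Ddx1, an RNA helicase, at 255 kb. The turn in the junction profile at about 100 kb was not tested against any feature of the sequence.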
